A study of Mus musculus with 6 samples.

Results

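The genes described here encode the secreted Wnt ligands, their frizzled, Lrp and Lgr receptors, and the extracellular or membrane proteins that limit or extend Wnt signalling. They were taken by symbol from the array's annotation: every Wnt and frizzled (Fzd) gene, the secreted frizzled-related proteins (Sfrp, with Frzb), the Dickkopf (Dkk) and R-spondin (Rspo) families, Lgr4, Lgr5, Lgr6, Lrp5, Lrp6, Wif1, Notum, the ubiquitin ligases Znrf3 and Rnf43, and Axin2. This gave 52 of the 22180 genes measured, each represented by its brightest probe set with a single gene symbol. The study measured total RNA on 6 mouse arrays, 1 per group, to follow fibroblasts that were being induced toward parvalbumin (PV) neurons, a class of fast-spiking inhibitory neuron.

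The groups were cells sorted for green fluorescent protein (GFP) after 14 days of induction ("sorted cells"), a sample labelled endogenous PV neurons, mouse embryonic fibroblasts (MEF), and unsorted induced PV (iPV) cultures after 3, 7 and 14 days. All 6 samples, MEF included, were labelled as PV-GFP transgenic, strain C57BL/6, from embryos of 13.5 days. All 6 also carried the same text on infection of cultured fibroblasts with adenovirus, and the labels used here do not name what the virus carried. They do not say how many animals or cultures each sample came from. With 1 array per group there was no replicate, so every difference below describes a pair of arrays, has no p-value and cannot show variation between cultures. Because RNA was extracted from cells in bulk, a lower value can come from fewer cells of a type or from less RNA per cell, and these cannot be told apart.

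Wnt proteins are lipid-modified signals that bind a frizzled receptor together with Lrp5 or Lrp6, which stabilises beta-catenin in the cell, or act through other co-receptors without it. Secreted frizzled-related proteins and Wif1 bind Wnts outside the cell, Dkk1 blocks the Lrp co-receptors, and Notum removes the lipid. R-spondins bind Lgr4, Lgr5 or Lgr6 and so hold back Znrf3 and Rnf43, ligases that clear frizzled from the membrane. In embryonic mesenchyme these genes help to pattern limb, bone and cartilage, and in the nervous system they act in regional identity, axon guidance and synapse formation.

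Values are log2 intensities, on which a difference of 1 is 2-fold. Values below 5.01, the midpoint (median) of the probe sets other than controls, were set to that floor before subtraction. A fold that involves one of them can only be a minimum and is written "at least". Levels of different genes rest on different probe sets and are not compared. Between probe sets of 1 gene, log2 differences between the same pair of arrays varied with a technical standard deviation of 0.27 to 0.50, depending on the pair. It was smallest for day 14 against day 7 and largest for sorted cells against MEF. All 14 fibroblast markers were above the floor on every array, the array labelled endogenous PV included, where Col1a1, a collagen chain, had 12.34 against 12.31 in MEF. Of 9 markers of PV and GABA neurons, 5 were above the floor on the array labelled endogenous PV, against 4 in MEF and 3 in sorted cells. The highest of them on the array labelled endogenous PV was Lhx6, at 5.78 against 5.53 in MEF. Pvalb, which encodes parvalbumin itself, had 6.29 in sorted cells, 5.48 on the array labelled endogenous PV and 5.23 in MEF. In the unsorted cultures Pvalb had 5.76 at day 3, 6.15 at day 7 and 5.80 at day 14. Gad2, a GABA-synthesising enzyme, was under the floor on all 6 arrays. The PV markers on the array labelled endogenous PV were thus at most 5.78, while fibroblast markers were bright there, and its label is used below only as a name.

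Of the 52 Wnt genes, 32 were above the floor on all 6 arrays, 13 on some of them and 7 on none. In all, 13 genes (25%) differed at least 2-fold from MEF on at least 1 of the other 5 arrays, against 8.47% of all genes. Among genes above the floor on at least 1 array the shares were 28.9% and 13.1%. The 13 were 2 of 19 ligands, 4 of 10 frizzled receptors, 3 of 5 genes of the Sfrp and Frzb family, 1 of 4 Dkk genes, 2 of 4 R-spondins and 1 of 3 Lgr receptors. Neither co-receptor, neither ubiquitin ligase, and none of Wif1, Notum and Axin2 was among them. Frzb and Wnt4 were at least 2-fold higher on all 5 arrays, and Rspo2 was at least 2-fold lower on all 5. Of all genes, 0.514% were higher and 0.194% lower by that measure. All 5 comparisons use the same MEF array, so they are not 5 separate observations of a change.

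**Figure D1:**
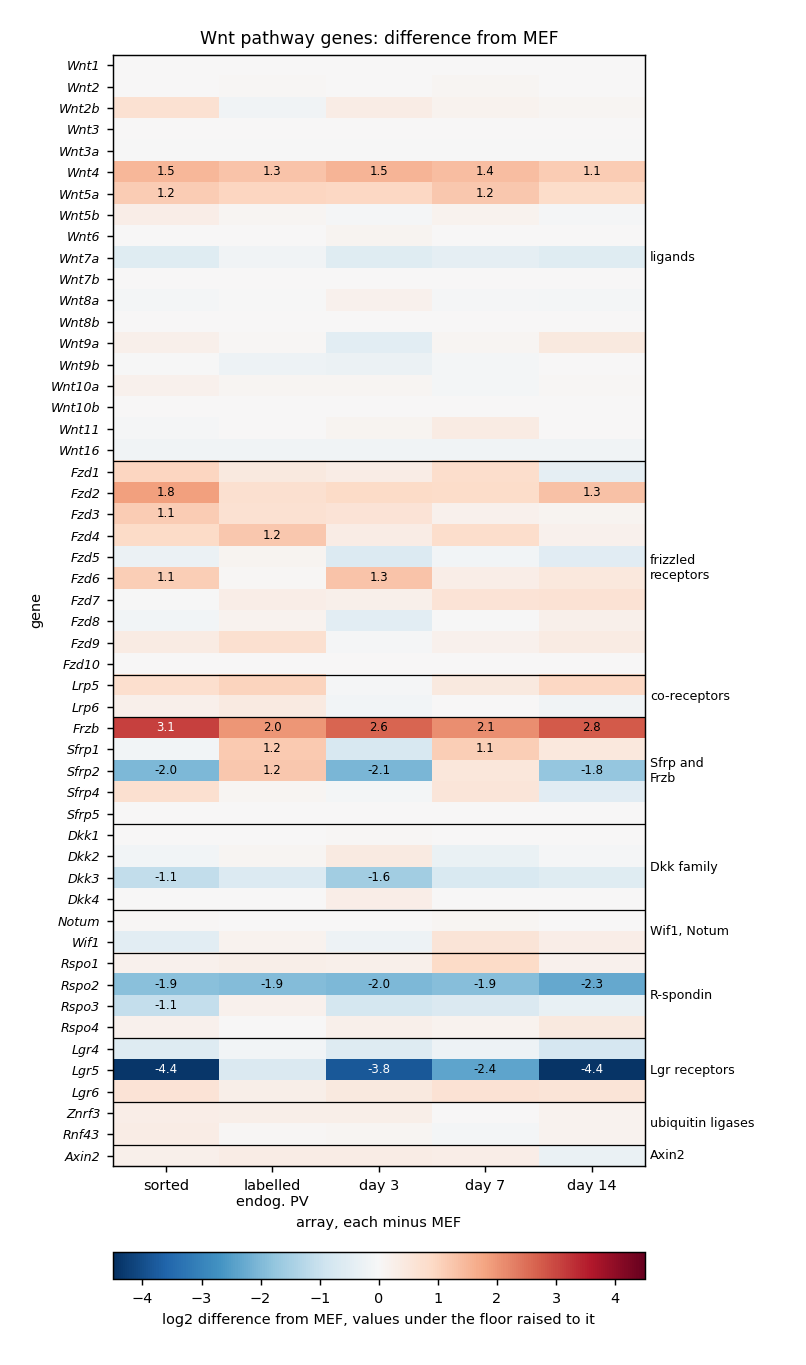
Log2 difference from MEF (colour, floored values) of the 52 Wnt genes, grouped by role, for sorted cells, the array labelled endogenous PV and iPV cultures at days 3, 7 and 14. Numbers are printed where a gene differed at least 2-fold, as in Frzb (1.97 to 3.07 on all 5 arrays), while most rows stay near 0.

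Counted pair by pair, 7 of the 52 genes differed at day 3 from MEF, 3 higher and 4 lower, where 3.07% of all genes differed, 1.43% higher and 1.64% lower. At day 7 against MEF, where 2.54% of all genes differed, 4 were higher (1.7% of all genes) and 2 lower (0.843%). At day 14 against MEF, where 3.36% differed, 3 were higher (2.1%) and 3 lower (1.26%). The largest count was in sorted cells against MEF (5.31% of all genes), with 6 higher (3.67%) and 5 lower (1.64%). That pair also had the largest technical standard deviation, 0.50. The array labelled endogenous PV, where 3.1% of all genes differed from MEF, had 5 higher (2.13%) and 1 lower (0.969%). The median difference over all 52 genes lay between 0 and 0.06 in these 5 comparisons, beside a median of 0 over all genes. Over the genes above the floor on either array of a pair, the medians were 0.18 in sorted cells, 0.13 on the array labelled endogenous PV, 0.08 at day 3, 0.15 at day 7 and 0.06 at day 14, against 0.02 to 0.08 over all such genes. Centring the arrays on housekeeping genes moved the median of all genes by -0.19 to -0.39 in these pairs and with it the balance of calls, to 2 higher and 5 lower at day 3, 1 and 4 at day 7, 1 and 5 at day 14, 3 and 5 in sorted cells, and 1 and 1 on the array labelled endogenous PV.

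**Figure D2:**
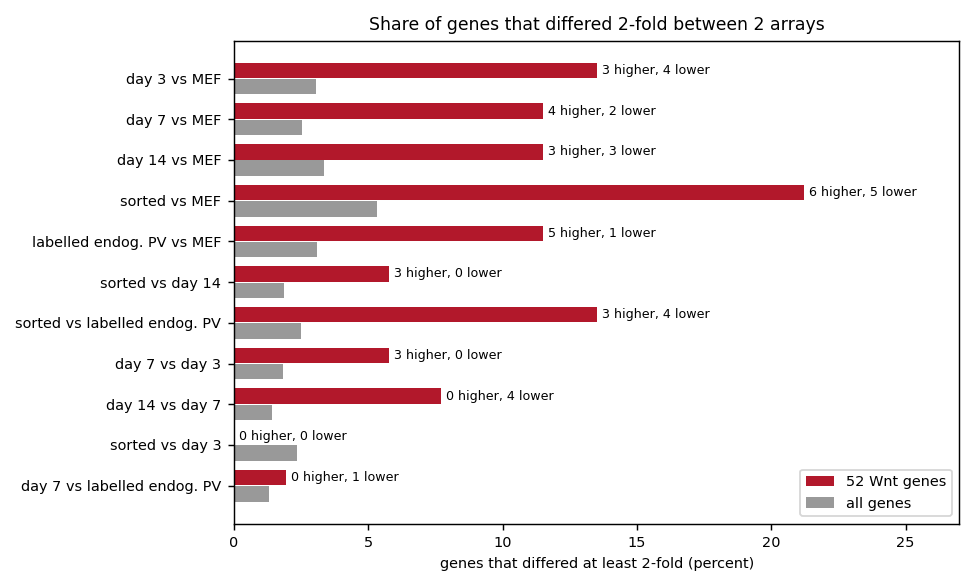
Percent of genes that differed at least 2-fold (horizontal axis) between the arrays of each pair, for the 52 Wnt genes (red) and all 22180 genes (grey), with the number of Wnt genes higher and lower written beside each bar. The red bar is longest for sorted cells against MEF (21.2% against 5.31%) and is at 0 for sorted cells against day 3.

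Among the ligands, Wnt4 and Wnt5a were higher on every other array than in MEF. Wnt4, a ligand best known from kidney and gonad development, had 6.92 in sorted cells, 6.69 on the array labelled endogenous PV, and along the course 5.41 in MEF, 6.95 at day 3, 6.78 at day 7 and 6.55 at day 14. The MEF value was the lowest, close to the floor, and the other 5 lay close together. The fold over MEF was 2.85 in sorted cells, 2.43 on the array labelled endogenous PV, 2.90 at day 3, 2.59 at day 7 and 2.21 at day 14. After housekeeping centring the log2 difference was 0.65 at day 14 and 0.91 at day 7, and on the array labelled endogenous PV it was just under 2-fold. With a floor at percentile 75 of the probe sets, above the MEF value, every Wnt4 difference from MEF was 0.36 or less. Wnt5a, which signals mainly without beta-catenin and guides limb outgrowth and axons, had 7.96 in sorted cells, 7.76 on the array labelled endogenous PV, and along the course 6.80 in MEF, 7.72 at day 3, 8.01 at day 7 and 7.62 at day 14. It passed 2-fold over MEF in sorted cells (2.23-fold) and at day 7 (2.33-fold), while day 3 (0.93 on the log2 scale), day 14 (0.82) and the array labelled endogenous PV (0.97) fell short of it. Both Wnt5a calls ended after housekeeping centring, at 0.85 in sorted cells and 0.76 at day 7.

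The other 17 ligands did not differ 2-fold in any comparison, although without a floor Wnt16 was at -1.01 at day 3 against MEF. Wnt1, Wnt3, Wnt7b, Wnt8b and Wnt10b were under the floor on all 6 arrays, with a highest single value of 4.91 for Wnt7b at day 14. Wnt9a lay between 5.53 at day 3 and 6.45 at day 14, Wnt11 between 5.74 and 6.17, Wnt9b between 5.16 and 5.47, and Wnt10a between 5.06 and 5.36. The remaining 8 were above the floor on some arrays only. Of these Wnt2b was highest in sorted cells, at 5.86, against 5.27 at day 14 and 5.17 in MEF, and Wnt7a, a ligand of neurons and dorsal limb ectoderm, was highest in MEF, at 5.56, against 4.6 in sorted cells. Wnt3a reached 5.05, Wnt6 5.14, Wnt16 5.17, Wnt2 5.10, Wnt8a 5.27 and Wnt5b 5.37. These values are close to the floor, and the arrays do not separate low expression from background there.

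Of the 10 frizzled receptors, 9 were above the floor on all 6 arrays and Fzd10 on none, between 3.21 and 3.77. Compared with MEF, 3 were at least 2-fold higher in sorted cells and 0 lower. In that pair 3.67% of all genes were higher and 1.64% lower. On each other array at most 1 frizzled gene was higher, where 1.43% to 2.13% of all genes were. Fzd2, a receptor for Wnt5a and other ligands, had 8.97 in sorted cells, 7.85 on the array labelled endogenous PV, and along the course 7.14 in MEF, 7.99 at day 3, 7.97 at day 7 and 8.45 at day 14. Sorted cells were highest and MEF lowest, a 3.56-fold difference, and day 14 stood 2.48-fold above MEF, or 0.82 on the log2 scale after housekeeping centring. Fzd6, which acts in planar cell polarity, had 7.16 in sorted cells, 6.12 on the array labelled endogenous PV, and along the course 6.06 in MEF, 7.34 at day 3, 6.34 at day 7 and 6.52 at day 14. It was high in sorted cells and at day 3, which were 2.14-fold and 2.42-fold above MEF, and housekeeping centring brought these log2 differences to 0.79 and 0.99. Fzd3, needed for axon tract formation in the mouse brain, had 6.17 in sorted cells, 5.73 on the array labelled endogenous PV, and along the course 5.04 in MEF, 5.64 at day 3, 5.23 at day 7 and 5.17 at day 14. Only sorted cells differed 2-fold from MEF in this gene (2.19-fold), and the value after housekeeping centring was 0.82. The floor at percentile 75 ended the calls of Fzd6, at 0.58 in sorted cells and 0.75 at day 3, and of Fzd3.

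Fzd4, the receptor of norrin in retinal vessels, had 7.73 in sorted cells, 8.08 on the array labelled endogenous PV, and along the course 6.88 in MEF, 7.21 at day 3, 7.69 at day 7 and 7.06 at day 14. The array labelled endogenous PV was highest, 2.30-fold above MEF, and 0.92 on the log2 scale after housekeeping centring. Fzd1 had 8.40 in sorted cells, 7.90 on the array labelled endogenous PV, and along the course 7.44 in MEF, 7.79 at day 3, 8.24 at day 7 and 7.04 at day 14. It did not differ 2-fold from MEF, but its lowest value was that at day 14, from which sorted cells and day 7 both stood apart. Fzd7 had values of 8.21 to 8.88, Fzd8 between 5.84 and 6.54, Fzd5 between 5.55 and 6.30 and Fzd9 between 5.26 and 6.05, each within 1 log2 unit.

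The co-receptors differed less. Lrp6 had 9.85 in sorted cells, 10.02 on the array labelled endogenous PV, and along the course 9.61 in MEF, 9.50 at day 3, 9.64 at day 7 and 9.45 at day 14. A dimmer Lrp6 probe set was lower than MEF on all 5 arrays. At day 3 and day 14 the brighter one was lower too, by -0.11 and -0.16, but on the other 3 arrays the probe sets differed in sign, so no direction is given for this gene. The dimmer set had 5.46 in sorted cells, 5.57 on the array labelled endogenous PV and 6.31 in MEF. Lrp5, which controls bone mass, lay between 7.94 at day 3 and 8.97 on the array labelled endogenous PV, and its largest difference from MEF was 0.98 there.

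The Sfrp and Frzb family held both the largest rise and a gene that moved in opposite directions on different arrays. Frzb, also called Sfrp3, a Wnt-binding protein first studied in cartilage, had 9.37 in sorted cells, 8.27 on the array labelled endogenous PV, and along the course 6.30 in MEF, 8.93 at day 3, 8.41 at day 7 and 9.07 at day 14. MEF was lowest, by 1.97 log2 units or more. The fold over MEF was 8.41 in sorted cells, 3.92 on the array labelled endogenous PV, 6.21 at day 3, 4.30 at day 7 and 6.83 at day 14. At day 3 it was number 27 of the 22180 genes counted from the largest rise, and in sorted cells number 34. It was number 65 at day 7, number 28 at day 14 and number 94 on the array labelled endogenous PV.

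Sfrp2, a secreted Wnt modulator of mesenchyme, had 7.23 in sorted cells, 10.47 on the array labelled endogenous PV, and along the course 9.27 in MEF, 7.22 at day 3, 9.77 at day 7 and 7.51 at day 14. Sorted cells, day 3 and day 14 formed a low set, and the array labelled endogenous PV, day 7 and MEF a high set. Relative to MEF it was 4.10-fold lower in sorted cells, 4.15-fold lower at day 3, 3.38-fold lower at day 14, and 2.30-fold higher on the array labelled endogenous PV, where housekeeping centring left 0.92 on the log2 scale. A second, dimmer Sfrp2 probe set had 4.64 in sorted cells, 5.89 on the array labelled endogenous PV, and 5.65 in MEF, 5.26 at day 3, 5.88 at day 7 and 4.89 at day 14. The same 3 arrays were low in both probe sets, but no difference from MEF reached 2-fold in the dimmer one. Sfrp1, another Wnt-binding member of the family, had 10.46 in sorted cells, 11.77 on the array labelled endogenous PV, and along the course 10.59 in MEF, 9.88 at day 3, 11.68 at day 7 and 11.08 at day 14. It was 2.26-fold above MEF on the array labelled endogenous PV and 2.13-fold at day 7, and these calls ended after housekeeping centring, at 0.89 and 0.63 on the log2 scale.

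Sfrp4 had 6.26 in sorted cells, 5.6 on the array labelled endogenous PV, and along the course 5.53 in MEF, 5.45 at day 3, 6.08 at day 7 and 4.83 at day 14, the last under the floor. Sfrp5 was under the floor on every array, between 3.87 and 4.61.

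**Figure D3:**
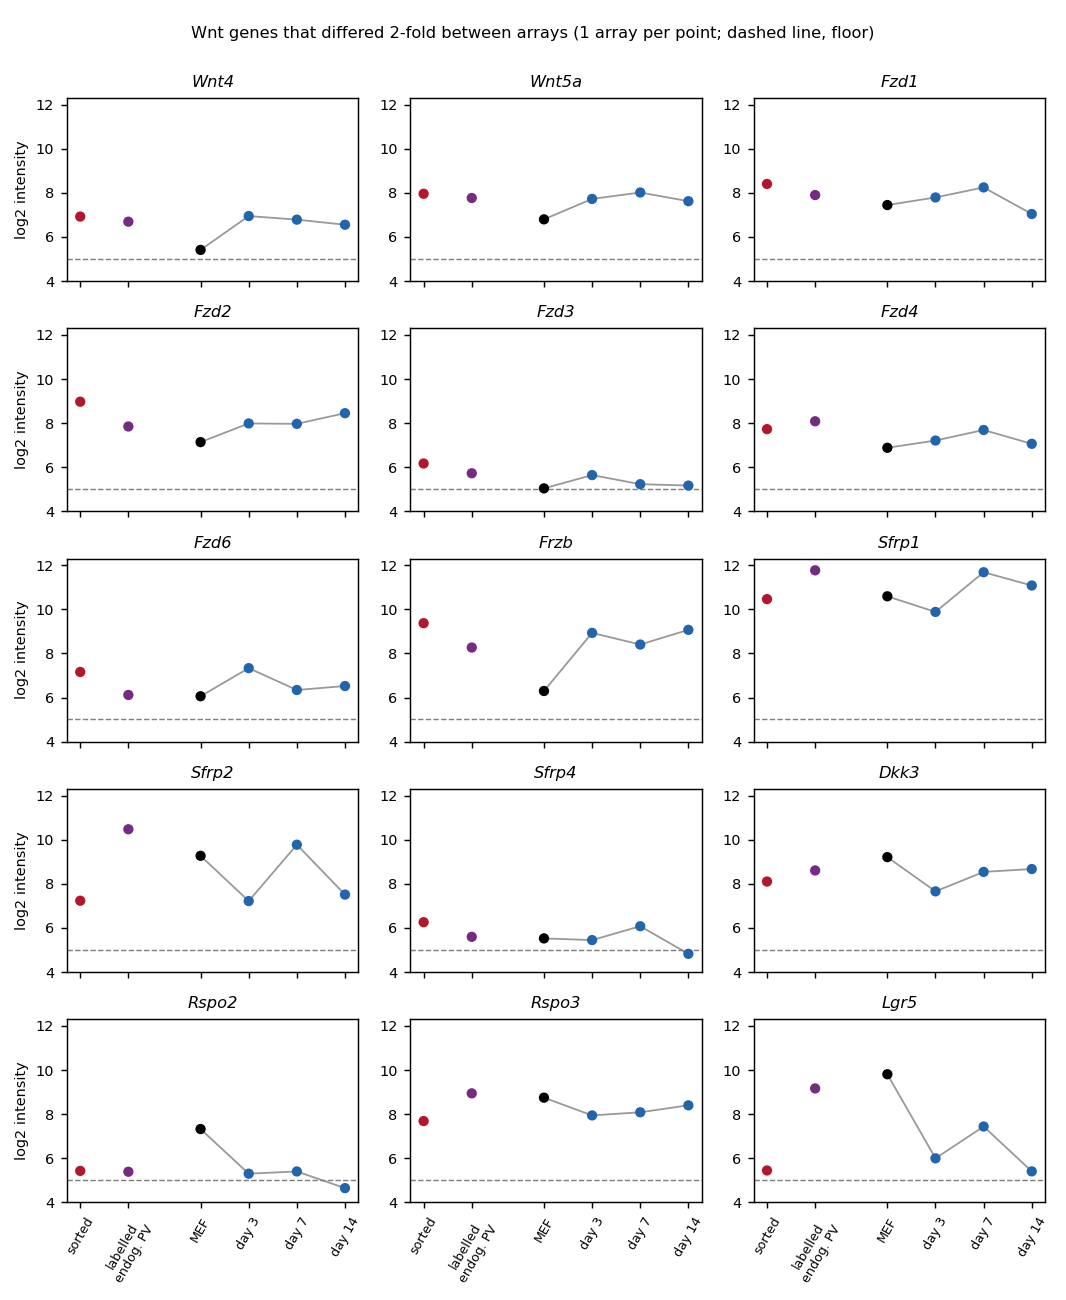
Log2 intensity (vertical axis) of the 15 Wnt genes that differed at least 2-fold in any of 9 comparisons, in sorted cells (red), the array labelled endogenous PV (purple), MEF (black) and iPV cultures at days 3, 7 and 14 (blue), 1 array per point. Grey lines join the course from MEF to day 14 and the dashed line is the floor of 5.01; Frzb is low in MEF alone, and Sfrp2 and Lgr5 dip at day 3 and day 14 with a higher value at day 7.

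Start-site sequences from RefSeq (GRCm38.p6) were matched for 33 of the 52 genes, as windows of 300 bases from 250 bases before to 50 after the annotated start. They are shown for 4 genes that differed between arrays and had a window, to let the control regions of a gene low in MEF alone (Frzb), a gene with the day 7 peak (Sfrp2), the ligand raised on 5 arrays (Wnt4) and the receptor low at day 14 (Fzd1) be compared. Capitals mark the letters ACAAAG or TCAAAG, or CTTTGT or CTTTGA on the opposite strand, the core that Tcf and Lef factors, the nuclear partners of beta-catenin, recognise. The windows lie at chr2:80447347-80447646 (Frzb, minus strand), chr3:83766071-83766370 (Sfrp2, plus strand), chr4:137277385-137277684 (Wnt4, plus strand) and chr5:4758167-4758466 (Fzd1, minus strand).
Frzb: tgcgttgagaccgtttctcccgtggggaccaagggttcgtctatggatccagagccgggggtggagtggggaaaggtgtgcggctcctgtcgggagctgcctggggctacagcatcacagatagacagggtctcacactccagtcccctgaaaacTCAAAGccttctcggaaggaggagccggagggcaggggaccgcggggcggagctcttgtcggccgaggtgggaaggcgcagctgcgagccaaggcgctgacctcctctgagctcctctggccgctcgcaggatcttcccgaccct
Sfrp2: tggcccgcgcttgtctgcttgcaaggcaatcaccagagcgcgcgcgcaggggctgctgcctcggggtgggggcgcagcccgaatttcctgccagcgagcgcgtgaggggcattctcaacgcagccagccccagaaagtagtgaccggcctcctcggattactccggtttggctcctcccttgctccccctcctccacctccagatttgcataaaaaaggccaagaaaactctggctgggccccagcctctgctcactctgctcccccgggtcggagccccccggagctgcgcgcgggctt
Wnt4: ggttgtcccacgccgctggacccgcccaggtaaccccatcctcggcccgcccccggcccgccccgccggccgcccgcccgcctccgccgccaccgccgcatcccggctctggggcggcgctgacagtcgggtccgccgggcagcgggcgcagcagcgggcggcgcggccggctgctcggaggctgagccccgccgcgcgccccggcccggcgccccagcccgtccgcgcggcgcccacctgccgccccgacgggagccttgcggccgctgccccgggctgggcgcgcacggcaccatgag
Fzd1: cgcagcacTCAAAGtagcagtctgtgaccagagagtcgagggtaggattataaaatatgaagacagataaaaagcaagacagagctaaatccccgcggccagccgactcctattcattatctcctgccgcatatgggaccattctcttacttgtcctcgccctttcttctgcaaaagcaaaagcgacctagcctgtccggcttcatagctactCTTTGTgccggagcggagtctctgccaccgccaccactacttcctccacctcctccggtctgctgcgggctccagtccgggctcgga
The Frzb window held 1 match, TCAAAG at base 156, and the Fzd1 window 2, TCAAAG at base 9 and CTTTGT at base 214, counted from the 5′ end. The Sfrp2 and Wnt4 windows held 0, as did that of Fzd4, which also differed 2-fold but is not shown. Of the 37 windows of the 33 genes, 9 held a match (24.3%), against 31.2% of all 32851 windows of the same length. The windows of these genes were richer in G and C, with a median of 66.7% against 52.7% over all windows, and Wnt4 was at 84.3%, with 51 CG pairs. These matches describe letters in the window and were not tested for binding.

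The Dickkopf genes were represented by Dkk2 and Dkk3. Dkk3, a divergent member that does not block Lrp co-receptors as Dkk1 does, had 8.10 in sorted cells, 8.61 on the array labelled endogenous PV, and along the course 9.21 in MEF, 7.66 at day 3, 8.54 at day 7 and 8.67 at day 14. MEF was highest and day 3 lowest, with day 3 2.93-fold and sorted cells 2.15-fold below MEF. Housekeeping centring added day 7 and day 14, at -1.13 and -1.03 on the log2 scale. Dkk2, an Lrp-binding modulator, had 8.72 in sorted cells, 8.93 on the array labelled endogenous PV, and along the course 8.84 in MEF, 9.24 at day 3, 8.54 at day 7 and 8.78 at day 14, with no 2-fold difference. Dkk1 and Dkk4 lay close to the floor, with highest values of 5.05 and 5.30. Wif1 was lowest in sorted cells, at 5.02, and highest at day 7, at 6.07, and Notum between 4.76 and 5.11.

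Lgr5 had the largest fall from MEF of the 52 genes on the 4 induced arrays. Lgr5, an R-spondin receptor and a marker of intestinal and hair follicle stem cells that is itself a Wnt target there, had 5.45 in sorted cells, 9.17 on the array labelled endogenous PV, and along the course 9.81 in MEF, 6.00 at day 3, 7.44 at day 7 and 5.41 at day 14. The array labelled endogenous PV and MEF were high, sorted cells, day 3 and day 14 were low, and day 7 lay between. Relative to MEF, Lgr5 was 20.6-fold lower in sorted cells, 14.0-fold lower at day 3, 5.16-fold lower at day 7 and 21.1-fold lower at day 14. At day 14 it was number 2 of 22180 genes counted from the largest fall, and in sorted cells number 3. On the array labelled endogenous PV the difference from MEF was -0.64, not 2-fold. A dimmer Lgr5 probe set was above the floor in MEF alone, at 5.6, and had 4.44 on the array labelled endogenous PV, so it gave the same direction for the 4 induced arrays but did not show the high value of the array labelled endogenous PV.

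Markers of cell types and of cycling cells moved over the same arrays. Of 10 macrophage markers, 5 were above the floor in sorted cells, 8 on the array labelled endogenous PV, and along the course 7 in MEF, 6 at day 3, 7 at day 7 and 8 at day 14. Their summed log2 values were 49.8 in sorted cells, 69.8 on the array labelled endogenous PV, and 67.0 in MEF, 51.5 at day 3, 57.5 at day 7 and 57.4 at day 14, high on the 2 arrays where Lgr5 was highest. Between day 7 and day 14 these sums hardly differed, while Lgr5 had 7.44 and 5.41. Summed values of 8 markers of cycling cells were 51.6 in sorted cells, 53.8 on the array labelled endogenous PV and 63.2 in MEF. Along the course they were 50.4 at day 3, 62.6 at day 7 and 50.1 at day 14. The cycling sums shared the low sorted, day 3 and day 14 values with Sfrp2. They were also low on the array labelled endogenous PV, where Sfrp2 was highest, at 10.47. The part of either cell type or state in the Lgr5 and Sfrp2 values was not tested.

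Rspo2, a ligand of the Lgr receptors active in limb and lung development, had 5.43 in sorted cells, 5.39 on the array labelled endogenous PV, and along the course 7.33 in MEF, 5.30 at day 3, 5.40 at day 7 and 4.65 at day 14. Its value was high in MEF alone, and the other 5 arrays lay near or under the floor. It was 3.72-fold lower in sorted cells, 3.82-fold lower on the array labelled endogenous PV, 4.07-fold at day 3, 3.79-fold at day 7 and at least 4.97-fold at day 14. With a floor at percentile 75, above all 5 of these values, the difference was -0.74 on each array. Rspo3, an R-spondin of vessels and mesenchyme, had 7.69 in sorted cells, 8.94 on the array labelled endogenous PV, and along the course 8.75 in MEF, 7.94 at day 3, 8.09 at day 7 and 8.40 at day 14. Sorted cells were lowest, 2.09-fold below MEF, and housekeeping centring brought day 3 and day 7 past 2-fold as well, at -1.09 and -1.12. Rspo1 lay between 6.56 in MEF and 7.42 at day 7, and Rspo4 between 5.09 and 5.55.

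The remaining genes of this axis stayed within 2-fold of MEF on the values as deposited. Lgr4, the widely expressed R-spondin receptor, lay between 7.44 at day 14 and 8.21 in MEF, with a largest difference of -0.77 at day 14, which housekeeping centring brought past 2-fold, at -1.26. Lgr6 lay between 5.19 in MEF and 5.84 at day 7. Znrf3 lay between 5.83 and 6.14 and Rnf43 between 5.08 and 5.49. Axin2, a scaffold of the destruction complex that rises with beta-catenin signalling in many tissues, had 5.79 in sorted cells, 5.86 on the array labelled endogenous PV, and 5.54 in MEF, 5.88 at day 3, 5.85 at day 7 and 5.24 at day 14. Its second probe set lay between 5.06 in MEF and 5.40 at day 7, and the probe sets differed in sign at day 14, by -0.30 and 0.29.

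Sfrp2 and Lgr5 passed 2-fold between both pairs of successive times, in opposite directions. At day 7 against day 3, where 1.83% of all genes differed, 3 of the 52 were higher (1.3%) and 0 lower (0.528%): Sfrp2 by 5.88-fold, Sfrp1 by 3.48-fold and Lgr5 by 2.72-fold. Sfrp2 was number 8 of 22180 from the largest rise in that pair. At day 14 against day 7, where 1.43% differed, 0 were higher (0.604%) and 4 lower (0.825%): Sfrp2 by 4.79-fold, Lgr5 by 4.10-fold, Fzd1 by 2.30-fold and Sfrp4 by at least 2.09-fold. Both pairs include the day 7 array, so a single high array would give both. The Lgr5 calls in these pairs ended with the floor at percentile 75, at 0.86 and -0.86. Quantile normalization and housekeeping centring each added Fzd6 as lower at day 7 than at day 3, at -1.0 and -1.17, which made 3 higher and 1 lower.

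Sorted cells were set against the unsorted culture of the same day. In all 1.87% of genes differed, and of the 52 Wnt genes 3 were higher (1.26% of all genes) and 0 lower (0.609%). Fzd1 was 2.57-fold higher, with 8.40 in sorted cells against 7.04 at day 14, Sfrp4 at least 2.38-fold higher, and Fzd3 2.0-fold higher, with 6.17 in sorted cells against 5.17 at day 14. Fzd3 lay on the threshold and fell to 0.89 on the log2 scale after quantile normalization. In the same pair 3 of 10 neuronal markers were at least 2-fold higher and 0 lower, Tubb3, Snap25 and Map2, and 3 of 10 macrophage markers were lower; their part in these values was not tested. Against the array labelled endogenous PV, where 2.5% of all genes differed, 3 Wnt genes were higher in sorted cells (1.36%), Fzd2 by 2.18-fold, Frzb by 2.15-fold and Fzd6 by 2.06-fold, and 4 were lower (1.14%), Lgr5 by 13.2-fold, Sfrp2 by 9.44-fold, Sfrp1 by 2.47-fold and Rspo3 by 2.39-fold. Fzd6 was at 0.95 on the log2 scale after quantile normalization.

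A further 2 pairs were added after the values had been seen. Between sorted cells and day 3, 0 of 52 genes differed 2-fold, where 2.36% of all genes differed, 1.79% higher and 0.564% lower; Fzd2, at 0.99, was the largest rise and Lgr5, at -0.55, the largest fall. Between day 7 and the array labelled endogenous PV, 0 were higher (0.591%) and 1 was lower (0.712%), Lgr5 by -1.72 on the log2 scale, a call that ended with the mean of its probe sets. A call of 0 does not show that the arrays are alike, since differences under 2-fold are not counted.

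Other genes of the pathway, from lists of secretion, co-receptor, transduction, nuclear, inhibitor and target genes, numbered 119. In sorted cells 7 were higher (3.67% of all genes) and 5 lower (1.64%) than in MEF. Against MEF, the array labelled endogenous PV had 3 higher (2.13%) and 1 lower (0.969%), and the cultures had 1 and 4 at day 3 (1.43% and 1.64%), 6 and 2 at day 7 (1.7% and 0.843%), and 1 and 4 at day 14 (2.1% and 1.26%). Their median difference from MEF lay between 0 and 0.11. The shares of these 119 genes lay closer to those of all genes than the shares of the 52 did, and this difference was not tested.

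By role, 1 of 24 genes of the destruction complex and its regulators passed 2-fold in a comparison with MEF, where 8.47% of all genes did so at least once. This was Dvl3, a dishevelled adaptor, with 9.46 in sorted cells against 8.28 in MEF. Of 18 nuclear genes 1 did, Tcf7l1, with 7.88 on the array labelled endogenous PV against 6.86 in MEF. Ctnnb1, which encodes beta-catenin, had 10.05 in sorted cells, 9.77 on the array labelled endogenous PV, and 9.41 in MEF, 9.69 at day 3, 9.64 at day 7 and 9.68 at day 14. Of 5 secretion genes, Porcn, the enzyme that adds the lipid to Wnts, was higher than in MEF in sorted cells (7.87 against 6.46) and at day 7 (7.47). Of 21 co-receptor and planar polarity genes, Gpc3, a glypican, was higher at day 7 (10.11 against 9.02 in MEF), Prickle2 on the array labelled endogenous PV (7.63 against 6.47 in MEF) and Ror1, a Wnt5a receptor, in sorted cells against day 14 (6.21 against 5.14).

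Among 22 other inhibitors, 4 were higher and 1 lower in sorted cells than in MEF, and 5 were higher and 1 lower than at day 14. Over all genes the shares were 3.67% and 1.64% against MEF, and 1.26% and 0.609% against day 14. Draxin, a secreted axon guidance factor that can antagonise Wnt signalling, had 8.72 in sorted cells, 6.57 on the array labelled endogenous PV, and along the course 5.82 in MEF, 6.42 at day 3, 6.59 at day 7 and 6.45 at day 14, so sorted cells stood more than 2 log2 units above every other array. Shisa2 and Shisa3, which hold frizzled receptors inside the cell, were higher in sorted cells, at 7.36 and 6.73, than at day 14, at 6.24 and 5.55, and Shisa3 was also at 6.95 at day 7. Tmem88 was at 8.15 in sorted cells against 6.97 at day 14. Igfbp4, which binds growth factors and Wnt receptors, had 9.07 in sorted cells, 8.80 in MEF, 10.20 at day 7 and 7.80 at day 14. Nkd1, a feedback inhibitor, was higher than in MEF in sorted cells and at day 7, by 1.13 and 1.10 on the log2 scale. Its relative Nkd2 had 5.99 in sorted cells, 6.98 on the array labelled endogenous PV, and 7.55 in MEF, 5.61 at day 3, 6.56 at day 7 and 7.33 at day 14, lower than in MEF by 1.56 in sorted cells and 1.94 at day 3.

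Of 34 genes known as Wnt targets in some tissue, 2 were higher and 5 lower in sorted cells than in MEF, and 1 was higher and 6 lower than at day 14. Nkd1 is among those higher than in MEF, and Nkd2 among the lower genes in both pairs. Both were also counted among the inhibitors above. Over all genes 3.67% were higher and 1.64% lower than in MEF, and 1.26% and 0.609% than at day 14. Id2, an inhibitor of basic helix-loop-helix factors that many pathways control, had 9.72 in sorted cells, 8.49 on the array labelled endogenous PV, and along the course 6.70 in MEF, 9.76 at day 3, 9.17 at day 7 and 9.0 at day 14, low in MEF alone. Ccn5, a matricellular protein, had 6.33 in sorted cells, 8.37 on the array labelled endogenous PV, and 8.88 in MEF, 6.35 at day 3, 7.75 at day 7 and 8.07 at day 14. Fgf9, a growth factor, had 5.59 in sorted cells, 7.62 on the array labelled endogenous PV, and 7.08 in MEF, 5.82 at day 3, 7.19 at day 7 and 6.65 at day 14. Sorted cells and day 3 were the lowest arrays in both. Cd44, a hyaluronan receptor, was at 6.84 in sorted cells, 6.91 at day 14 and 6.57 on the array labelled endogenous PV, each lower than 8.04 in MEF. Edn1 was lower in sorted cells (5.33) and at day 3 (5.23) than in MEF (6.42). Jag1, a Notch ligand, was lower at day 7 (7.46 against 8.60 in MEF), and Fst and Gja1 were lower at day 14, by 1.02 and 1.15. Ccnd1 and Myc, which drive cell division, were lower in sorted cells (8.16 and 6.75) than at day 14 (9.28 and 7.92), and Sox9 was higher, at 6.36 against 5.34. Lef1, both a target and a Tcf-family factor, had 5.08 in sorted cells and 5.40 in MEF and was under the floor on the other 4 arrays. These genes answer to other pathways too, so their values are not a measure of Wnt signalling.

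**Figure D4:**
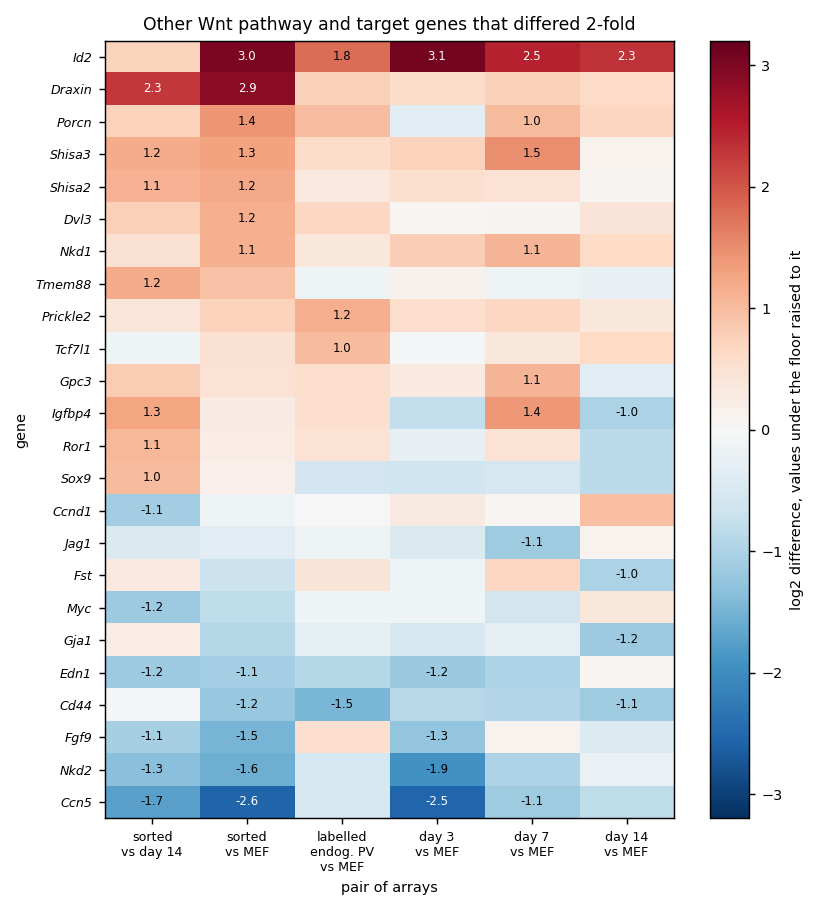
Log2 difference (colour, floored values) of the 24 other Wnt pathway and target genes that differed at least 2-fold in 1 of the 6 pairs of arrays shown (columns). Numbers are printed where the difference reached 2-fold; Id2 is higher than in MEF on all 5 arrays, and Draxin is marked in sorted cells alone.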

How the data were processed

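Per the labels' protocols, 6 µg of total RNA from each sample was biotin-labelled for 1 Affymetrix array. A single table, deposited by the authors, holds log2 values of 41345 probe sets; the range of the values gave the scale. The submitters' processing notes name Affymetrix Expression Console. Which algorithm, version and genome build it used is not given in the sources used here. The 5333 probe sets numbered below the first annotated one were treated as controls. Of the rest, 23521 had 1 gene symbol in the platform annotation and 1814 several, which were not used. All 57 probe sets of the 52 genes matched RefSeq by Entrez identifier. Each gene took its probe set with the highest mean, values were raised to a floor at the median (5.01), and genes were counted at a log2 difference of 1 or more in 9 pairs of arrays, with 2 pairs added later. A member was given with all 6 values where it differed 2-fold in any of the 9 or reached 9 on any array; Axin2 was added after its values were seen. The technical spread is the standard deviation of the difference between the log2 differences of the 2 brightest probe sets of a gene, scaled to 1 probe set by dividing by √2 (327 to 403 genes a pair). Housekeeping genes were 24 in number, and centring set their median level equal on all arrays. The counting code was checked on simulated differences without noise, in genes well above the floor. That check does not cover noise or values near the floor. The genes and lists were chosen with earlier results of these data known. Alternatives were quantile normalization, housekeeping centring, no floor, a floor at percentile 75, the mean of probe sets and a 1.5-fold threshold. Python 3.11.15, NumPy, pandas and matplotlib were used. With 1 array per group, the number of arrays limits the precision.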

Additional observations from a re-analysis of the deposited data

Results flagged for a closer look

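Sfrp2 differed from MEF in opposite directions on different arrays, by 1.20 on the log2 scale on the array labelled endogenous PV and by -2.05 at day 3, -1.76 at day 14 and -2.04 in sorted cells. The day 3 difference minus that of the array labelled endogenous PV was -3.25, the day 14 difference minus it -2.96, and that of sorted cells minus it -3.24. With 1 array per group this contrast was not tested, and the MEF value drops out of it.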

How the results depend on the processing

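The 53 differences of at least 2-fold among the genes given with all values did not reverse under any alternative run, although some became 0 under the higher floor. Of them, 53 stayed at 2-fold or more with no floor, 51 with the mean of probe sets and 50 after quantile normalization. After housekeeping centring 39 stayed, and 34 with a floor at percentile 75, which lies above several of the values. Removing the floor cannot make a difference smaller, so the 53 was fixed in advance. The mean of probe sets could change only Lgr5 and Sfrp2, since the other genes with a call have 1 probe set each. A 1.5-fold threshold gave, each against MEF, 18 genes in sorted cells, 13 for the array labelled endogenous PV, 13 for day 3, 14 for day 7 and 10 for day 14. It gave 10 for sorted cells against day 14, 9 for day 7 against day 3, 9 for day 14 against day 7, 5 for sorted cells against day 3 and 3 for day 7 against the array labelled endogenous PV. The floor at percentile 75 left 4 genes at day 3 and 7 in sorted cells against MEF, 1 for sorted cells against day 14 and 2 for day 14 against day 7. Housekeeping centring left 2 on the array labelled endogenous PV against MEF and gave 2 for day 7 against that array, where the mean of probe sets gave 0. The cause of these moves was not tested, apart from the threshold and the floor, which count more or fewer genes by construction. No paired analysis was possible because each group has 1 array. Values near the floor are limited by background: control probe sets had medians between 4.25 and 4.72.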
